A study of Mus musculus with 44 samples.

Results

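The genes described here encode the kinase mTOR, its partners in mTOR complex 1 (mTORC1) and mTOR complex 2 (mTORC2), 2 AKT kinases and the TSC inhibitor. They were chosen by symbol (Mtor, Mlst8, Rptor, Rictor, Mapkap1, Akt1, Akt2, Tsc1 and Tsc2), with earlier results of these data known, and all 9 are among the 14699 genes of the deposited table of CPM (reads on a gene per 1000000 reads of its library). RNA-seq was performed on CD45+CD11c+MHCIIhigh cells sorted from draining inguinal lymph nodes 24 h after a subcutaneous injection at zeitgeber time (ZT, hours after lights on in a 12 h light and 12 h dark cycle) 3, 9, 15 or 21. The arm labelled WT received B16-F10-OVA cells, a melanoma line that carries ovalbumin (5 mice per timepoint, 20 libraries), the arm labelled KO received the same cells (3 mice per timepoint, 12 libraries), and sham mice of the WT genotype received PBS (3 mice per timepoint, 12 libraries). KO mice were Clec9a-cre:Bmal1flox, homozygous for a floxed Arntl, the gene of the clock protein BMAL1, with a Cre that is active in conventional dendritic cells. Mice were females of 8 to 12 weeks. The source labels give a mouse per library but not the independent experiment it came from, so that p-values measure the spread between these mice only.

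mTOR is a serine/threonine kinase that joins nutrient and growth factor signals to cell growth. With RAPTOR (Rptor) it forms mTORC1, which promotes translation and lipid synthesis and restrains autophagy, and with RICTOR (Rictor) and SIN1 (Mapkap1) it forms mTORC2, which phosphorylates AKT. mLST8 (Mlst8) is shared by both complexes. AKT in turn phosphorylates TSC2, and the complex of TSC1 and TSC2 switches off RHEB, the small GTPase that activates mTORC1. In dendritic cells the pathway is known to act in development, metabolism and cytokine production after activation. RNA levels do not report kinase activity.

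Reads on genes, recovered from the size of 1 read in each CPM column, were 20088013 to 28962674 in WT, 29406731 to 55799164 in KO and 28003329 to 49590057 in PBS libraries. KO and PBS libraries overlapped in depth, while WT libraries had fewer reads than all KO and most PBS libraries. Depth and arm can therefore not be told apart where WT is compared with KO or PBS. All 6 dendritic cell markers were present, with a summed level of 12706 to 24721 CPM in WT, 13995 to 24519 in KO and 17007 to 23910 in PBS. Arntl was not lower in KO. Its level was 8.67 to 24.4 CPM in WT (median 14.8), 11.5 to 38.0 in KO (median 18.0) and 12.3 to 34.8 in PBS (median 21.9), and the averaged difference, KO minus WT, was 0.38 ± 0.12 on the log2 scale (SE, adjusted p = 0.0153), or 0.29 with median-of-ratios scaling (adjusted p = 0.0560). The table gives totals over the whole gene, which do not show whether the floxed part was lost, and KO libraries are therefore named by their label throughout. Markers of other cells differed between arms. Of 23 T cell markers, 20 were in the table, none with a median of 0 in any arm, and they summed to 716 to 1245 CPM in WT, 869 to 1747 in KO and 959 to 1939 in PBS. The 8 macrophage markers summed to 84.0 to 253 CPM in WT, 148 to 929 in KO (median of Mertk 0) and 274 to 447 in PBS, the 9 NK cell markers to 72.3 to 126, 102 to 276 and 172 to 774, and the part of the macrophage and NK cell markers in the results was not tested, while the T cell markers were fitted as a covariate. Fewer cells of a type and less RNA per cell cannot be told apart in such bulk samples.

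The members were expressed at unequal levels. Per kilobase of the longest GENCODE transcript, Akt1 had the highest mean level of the 9 in WT libraries with 68.5 ± 8.68 CPM per kb (SD, n = 20), followed by Mapkap1 with 40.8 ± 5.51 and Rptor with 15.4 ± 3.69. The library ranges of Akt1 (53.0 to 80.9) and Mapkap1 (33.6 to 49.9) did not overlap, nor did those of Mapkap1 and Rptor (10.4 to 22.6). Below them, each neighbour overlapped the next in its range. Akt2 had 11.2 ± 1.14, Tsc2 9.12 ± 3.18 and Mlst8 5.82 ± 1.44 CPM per kb. Rictor (3.91 ± 0.84), Tsc1 (3.55 ± 0.97) and Mtor (3.52 ± 1.05) had the lowest means and did not differ beyond their spread. The kinase itself and the defining mTORC2 subunit were thus represented by fewer reads per kb than AKT1. In PBS libraries Mapkap1 (39.4 ± 4.60 CPM per kb, n = 12) had a higher mean than Akt1 (23.6 ± 9.60), and in KO libraries their means were 44.2 ± 6.89 and 45.3 ± 30.8. The kit does not mark strand, and Tsc2 shares 693 exon bases with Pkd1, Mlst8 997 with Bricd5 and Rptor 84 with Rptoros, each on the opposite strand. Pkd1 was at 17.9 to 74.8 CPM in WT libraries and varied with Tsc2 (Pearson's r = 0.72 across 20 WT libraries, 0.49 across 12 KO and 0.14 across 12 PBS libraries), so that the Tsc2 values are uncertain. Bricd5 did not exceed 0.811 CPM, and whether the shared bases bear on the Mlst8 values was not tested.

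The promoters of the members were searched for clock motifs, since BMAL1 binds E-boxes. RefSeq windows of 300 bases that span the annotated start (GRCm38.p6) were found for all 9. For each gene 1 window was searched, the one nearest the gene start. Akt2 had 4 entries and Akt1 and Mapkap1 had 2 each, and their other windows were not searched. The window of Tsc1 was placed on a start 240 bases from the gene start. The E-box CACGTG was in 0 of 9 windows and in 7.15% of 32851 windows of all genes, and the D-box letters TTATGNAA were in 0 of 9 (3.38%). The E-box variant CACGTT was in 1, that of Akt2, on the minus strand at position -48 from the start (4.68%), and the nuclear receptor core AGGTCA in 1, that of Akt1, at position -238 (16.3%). Both strands were searched, and a match is a description of these letters only. The windows of Rictor, Akt1 and Mtor, the 3 members with the smallest p in the test of genotype by time, and that of Akt2, which held the E-box variant, are given 5′ to 3′ on the strand of the gene, with matches in capitals. The Rictor window is rich in CG (78.3% GC, 47 CpG), that of Mtor less (56.7%, 21) and those of Akt1 (52.3%, 8) and Akt2 (50%, 12) least.
Rictor, chr15:6708131-6708430, plus strand: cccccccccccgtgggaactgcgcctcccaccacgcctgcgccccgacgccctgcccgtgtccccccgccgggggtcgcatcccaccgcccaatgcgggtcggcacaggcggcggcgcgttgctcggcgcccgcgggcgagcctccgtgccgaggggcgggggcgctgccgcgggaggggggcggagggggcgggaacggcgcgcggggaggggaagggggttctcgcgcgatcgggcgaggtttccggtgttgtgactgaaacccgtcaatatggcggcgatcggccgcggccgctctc
Mtor, chr4:148448332-148448631, plus strand: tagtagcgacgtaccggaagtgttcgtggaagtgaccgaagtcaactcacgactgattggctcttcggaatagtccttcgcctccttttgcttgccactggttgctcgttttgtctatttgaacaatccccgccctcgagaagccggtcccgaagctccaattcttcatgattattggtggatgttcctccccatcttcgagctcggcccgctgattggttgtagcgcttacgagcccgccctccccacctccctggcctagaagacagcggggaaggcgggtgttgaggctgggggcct
Akt1, chr12:112674835-112675134, minus strand: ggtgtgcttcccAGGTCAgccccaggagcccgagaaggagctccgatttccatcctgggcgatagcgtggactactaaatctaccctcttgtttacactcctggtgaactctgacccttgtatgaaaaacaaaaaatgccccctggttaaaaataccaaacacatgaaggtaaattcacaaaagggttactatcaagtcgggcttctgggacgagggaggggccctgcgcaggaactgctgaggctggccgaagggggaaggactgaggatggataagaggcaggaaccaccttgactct
Akt2, chr7:27591302-27591601, plus strand: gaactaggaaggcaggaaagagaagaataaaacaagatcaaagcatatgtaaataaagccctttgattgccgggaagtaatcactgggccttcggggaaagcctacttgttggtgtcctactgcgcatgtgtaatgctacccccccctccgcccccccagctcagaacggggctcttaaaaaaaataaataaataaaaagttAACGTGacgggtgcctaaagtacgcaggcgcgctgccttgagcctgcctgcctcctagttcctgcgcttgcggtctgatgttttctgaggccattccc

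The first question was whether the members varied with the time of injection in WT mice. Cells were collected 24 h later, at the same ZT, so that the times of injection and of harvest cannot be told apart. Rictor (mm10 chr15:6708349-6800401, plus strand), the subunit that defines mTORC2, was lowest at ZT15. Its promoter window, printed above, held none of the 4 motifs searched. Its level in the 5 WT libraries was 44.9, 33.9, 33.9, 43.1 and 37.3 CPM at ZT3, 43.2, 49.0, 43.8, 40.9 and 41.0 at ZT9, 22.5, 27.3, 28.8, 29.0 and 22.9 at ZT15, and 32.1, 34.2, 47.4, 34.2 and 39.5 at ZT21. All 5 ZT15 libraries lay below the other 15 WT libraries, a separation that 0.184% of the 11963 genes tested (at least 1 CPM in at least 5 libraries) showed. A cosinor with a 24-h period, a curve whose amplitude is the height of its peak above its mean, gave an amplitude of 0.30 ± 0.08 on the log2(CPM + 0.5) scale with a peak at 4.47 h (p = 0.00562, adjusted p = 0.333, n = 20). Rictor was the only 1 of 9 members with an unadjusted p below 0.05 in the WT cosinor, the threshold that the methods of the study use, which 9.2% of all genes passed. None passed after adjustment, as for all but 0.0251% of the genes. Rictor and Mtor, with Pik3r1, are among the pathway genes that the study displayed from these same libraries, so that their patterns are not independent evidence.

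Mtor (chr4:148448582-148557685, plus strand), the shared kinase, was highest at ZT9 in WT mice. It had 26.5, 31.6, 14.2, 36.3 and 29.97 CPM at ZT3, 28.6, 42.6, 52.1, 41.2 and 39.4 at ZT9, 26.3, 19.4, 33.3, 22.4 and 26.3 at ZT15, and 20.9, 31.7, 31.4, 20.6 and 28.7 at ZT21. Of the 5 libraries at ZT9, 4 were above all other WT libraries and 1 was within their range. The cosinor had an amplitude of 0.30 ± 0.12 with a peak at 8.54 h (p = 0.0632, n = 20), and the p was 0.040 under median-of-ratios scaling, 0.0458 with an intensity trend and 0.00299 with array weights, but 0.0982 with the replicate block, 0.157 with the long-transcript covariate described below and 0.763 with T cell markers as a covariate (n = 20 in each). ZT9 was higher than ZT21, the pair of injection times compared throughout the study, by 0.60 ± 0.22 (SE, p = 0.0139, adjusted p = 0.320, n = 20 in the fit).

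Tsc1 (chr2:28640993-28691172, plus strand), which stabilizes TSC2, had a similar course to Mtor with a peak at 6.73 h (amplitude 0.27 ± 0.10, p = 0.0544, n = 20). It had 30.8, 24.6, 20.6, 23.0 and 28.6 CPM at ZT3, 27.1, 43.6, 43.3, 39.3 and 29.7 at ZT9, 19.4, 17.7, 23.3, 25.5 and 17.6 at ZT15, and 22.4, 25.6, 27.0, 27.6 and 29.8 at ZT21. Here 3 libraries of ZT9 were above all others. Its difference between ZT9 and ZT21 was 0.44 ± 0.15 (p = 0.010, adjusted p = 0.288, n = 20). Mtor and Tsc1 were the 2 members higher at ZT9 at an unadjusted p below 0.05, which 6.44% of all genes were, and neither passed after adjustment (0.226% of all genes in either direction). With array weights both passed (0.68 for Mtor, adjusted p = 0.0275, and 0.50 for Tsc1, adjusted p = 0.0350). The 0.226% is from the fit without weights, and the share of all genes that passed with weights is not given here. With T cell markers as a covariate the differences were 0.42 for Mtor (p = 0.241, n = 20) and 0.31 for Tsc1 (p = 0.200, n = 20), and with the long-transcript covariate 0.34 (p = 0.107, n = 20) and 0.29 (p = 0.0659, n = 20), so that neither stayed below 0.05. Both measures moved with time in WT. The mean log2 level of the T cell markers was -0.85 to -0.28 at ZT9 and -0.20 to 0.25 at ZT21, and the long-transcript index was 0.21 and 0.11 on average. The median difference was 0.26 over the members and 0.04 over all genes.

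The other mTORC1 member, Rptor (chr11:119602905-119899591, plus strand), which recruits substrates, had 99.98, 109, 71.2, 149 and 135 CPM at ZT3, 98.1, 127, 116, 118 and 109 at ZT9, 71.6, 68.3, 127, 121 and 69.6 at ZT15, and 96.0, 84.6, 76.5, 74.6 and 107 at ZT21. The ZT15 libraries fell into a low set of 3 and a high set of 2, and every timepoint overlapped the others (cosinor peak at 6.37 h, p = 0.0723, n = 20). Akt2 (chr7:27591552-27640826, plus strand), the AKT isoform known for its role in insulin signalling, kept a narrow range of 42.3 to 61.5 CPM with its fitted peak in the dark phase, at 18.2 h (amplitude 0.12 ± 0.05, p = 0.0767, n = 20). For Akt1, Mapkap1, Mlst8 and Tsc2 the p of the cosinor was between 0.484 and 0.520. The median amplitude was 0.18 over the members and 0.14 over all genes.

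**Figure D1:**
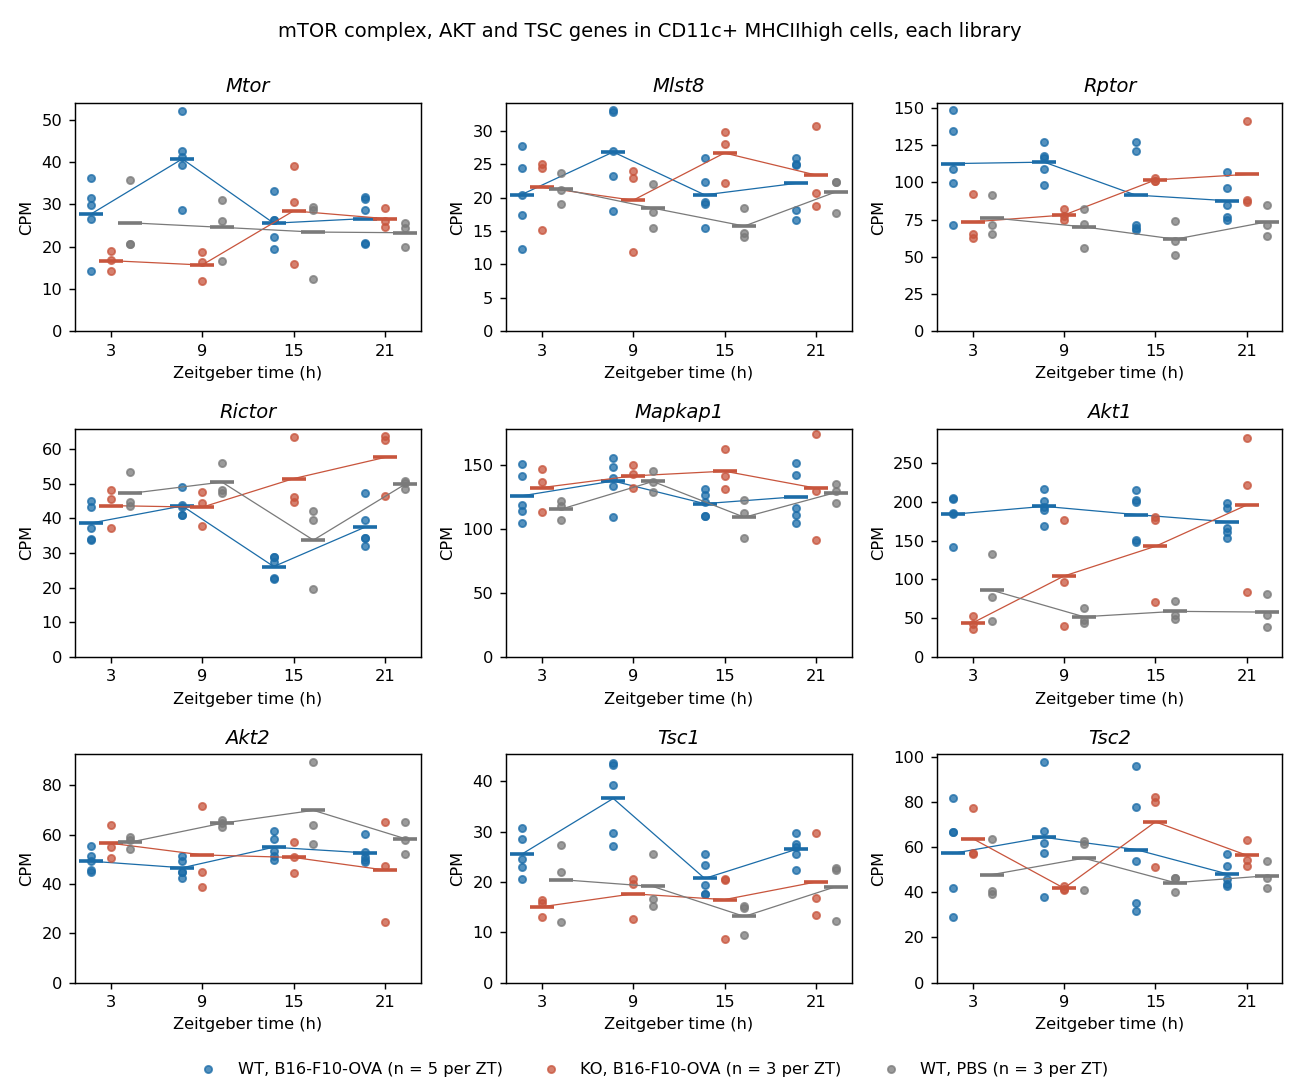
CPM of each member (y axis, linear, from 0) by zeitgeber time in hours (x axis), with a point per library, a bar at the mean of each group and lines joining the means, in WT (5 per timepoint), KO (3) and PBS (3) libraries. Rictor in WT is lowest at ZT15 (22.5 to 29.0 CPM), and Akt1 in WT (143 to 218 CPM) lies above every PBS library (39.1 to 133 CPM).

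The same genes were then followed in the libraries labelled KO. Mtor had its fitted peak in the dark phase there, at 18.3 h (amplitude 0.51 ± 0.15, p = 0.0157, adjusted p = 0.396, n = 12), and the p was 0.105 with T cell markers and 0.0946 with the long-transcript index as a covariate (n = 12 in each). Its level was 14.1, 16.8 and 19.1 CPM at ZT3, 18.8, 11.8 and 16.3 at ZT9, 39.1, 15.8 and 30.5 at ZT15, and 29.1, 24.7 and 26.1 at ZT21. All ZT21 libraries were above all ZT3 and ZT9 libraries, and 1 of 3 at ZT15 was as low as the ZT3 and ZT9 libraries. The share of all genes with such a separation in KO is not given here. ZT9 was lower than ZT21 by 0.77 ± 0.30 (p = 0.0289, adjusted p = 0.416, n = 12 in the fit), the 1 member lower at an unadjusted p below 0.05 (8.89% of all genes, and 0.00836% after adjustment in either direction). It was -0.64 with T cell markers as a covariate (p = 0.135, n = 12) and -0.60 with the long-transcript covariate (p = 0.0930, n = 12). The mean log2 level of the T cell markers was -0.27 to -0.25 at ZT9 and -0.21 to 0.78 at ZT21 in KO. The median of all genes was -0.12 in this comparison, and it moved by 0.12 under median-of-ratios scaling. The median of the members was -0.39.

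Akt1, with a peak at 17.1 h (amplitude 0.94 ± 0.33, p = 0.0450, n = 12), had 53.2, 35.7 and 42.5 CPM at ZT3, 39.2, 97.3 and 177 at ZT9, 70.2, 177 and 181 at ZT15, and 283, 222 and 84.2 at ZT21 in KO libraries. All 3 libraries of ZT3 were low, while each later timepoint held libraries that differed from each other by more than 2-fold. Rptor had a fitted peak at 17.6 h (amplitude 0.31 ± 0.10, p = 0.0360, n = 12), with 62.8, 65.4 and 92.3 CPM at ZT3, 82.3, 74.7 and 77.2 at ZT9, 101, 101 and 103 at ZT15, and 141, 86.9 and 88.1 at ZT21. These 3 members had an unadjusted p below 0.05 in the KO cosinor, beside 10.5% of all genes, and 0% of all genes passed after adjustment. Under median-of-ratios scaling 1 member (Mtor) was below 0.05, with T cell markers as a covariate 2 (Rptor and Akt1), and with the long-transcript covariate 0. The 10.5% is from the main fit, and the shares of all genes in these other fits are not given here. Leaving out 1 of the 12 libraries ended the call of Akt1 in 8 fits and that of Rptor in 7. Rictor had 45.7, 48.2 and 37.1 CPM at ZT3, 37.9, 44.3 and 47.5 at ZT9, 63.6, 44.7 and 46.2 at ZT15, and 62.8, 46.4 and 63.7 at ZT21 (fitted peak at 19.1 h, p = 0.105, n = 12). Its ZT15 libraries were thus not the lowest of this arm, unlike those of WT.

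Whether the course over time differed between the genotype labels was tested directly as an interaction of genotype and time over the 32 libraries of both arms. The unadjusted p was 0.000408 for Rictor, 0.00204 for Akt1, 0.00212 for Mtor and 0.0154 for Rptor, and between 0.162 and 0.726 for the other 5 members. Among all genes 18.3% had an unadjusted p below 0.05, against 4 of 9 members. After adjustment the values were 0.0735, 0.110, 0.110 and 0.192, and no member was among the 0.0502% of genes that passed. For Rictor the adjusted p in limma was 0.047 with a filter of a mean of at least 10 CPM and 0.019 with array weights, but 0.148 under median-of-ratios scaling, 0.110 with the replicate block and 0.371 with the long-transcript covariate. The 0.0502% is from the main fit, and the shares of all genes in these other fits are not given here.

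The differences between libraries labelled KO and WT were then estimated at each timepoint. Rictor was higher in KO in the dark phase, by 0.96 ± 0.15 at ZT15 (adjusted p = 0.000153) and by 0.61 ± 0.15 at ZT21 (adjusted p = 0.00737), whereas at ZT3 the difference was 0.18 ± 0.15 (adjusted p = 0.571). At ZT15 the lowest KO library (44.7 CPM) was above the highest WT library (29.0 CPM). The other member whose arms did not overlap at ZT15 was Mapkap1, with at least 131.4 CPM in KO and at most 130.8 in WT, and 18.9% of all genes were apart in this way. Rictor was the 1 member called higher at ZT15 (12% of all genes) and at ZT21 (9.02%). At ZT21 no member had KO wholly above WT (13.6% of all genes). Without the first KO library of ZT21, the difference of Rictor there was 0.54 (adjusted p = 0.0564). The median of all genes was 0.25 at ZT15 and 0.12 at ZT21, and these moved by -0.20 and -0.12 under median-of-ratios scaling, so that the difference of Rictor at ZT15 is 0.71 above that of the median gene.

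At ZT3 and ZT9 the members called were lower in KO. At ZT3 the median difference was 0.08 over the members (5 of 9 above 0) and 0.08 over all genes, and at ZT9 it was -0.54 over the members (2 of 9 above 0) and -0.05 over all genes. Akt1 was lower by 2.07 ± 0.35 at ZT3 (adjusted p = 0.000569), the 1 member called there (2.14% of all genes were called lower). The 3 KO libraries had at most 53.2 CPM and the 5 WT libraries at least 143 CPM. At ZT9 the differences were -1.35 ± 0.27 for Mtor (adjusted p = 0.00174), -1.04 ± 0.25 for Tsc1 (adjusted p = 0.00866) and -1.14 ± 0.35 for Akt1 (adjusted p = 0.0424), 3 of 9 members against 5.17% of all genes. KO libraries lay wholly below WT for Akt1 and Tsc1 at ZT3 (4.16% of all genes) and for Mtor, Rptor and Tsc1 at ZT9 (11.3%). For Mtor at ZT9 the KO libraries had 11.8 to 18.8 CPM and the WT libraries 28.6 to 52.1.

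Some of these calls rested on single libraries or on the fit. Akt1 at ZT9 was no longer called when any 1 of the 5 WT libraries of ZT9, or either of the first 2 KO libraries of ZT9, was left out, with a difference of -0.56 (adjusted p = 0.366) without the first KO library, and the adjusted p was 0.101 with the replicate number as a block. Tsc1 at ZT9 was -0.82 (adjusted p = 0.0879) without the second KO library. With the long-transcript covariate none of the 3 calls at ZT9 was kept, with -0.39 for Mtor, -0.34 for Tsc1 and -0.41 for Akt1 (adjusted p between 0.547 and 0.694), and Rptor turned to 0.42. Rptor was lower in KO by 0.59 ± 0.22 at ZT3 (adjusted p = 0.130) and by 0.54 ± 0.22 at ZT9 (adjusted p = 0.141), which did not pass. Tsc1 differed by -0.73 ± 0.25 at ZT3 (adjusted p = 0.0869), -0.40 ± 0.25 at ZT15 (adjusted p = 0.267) and -0.47 ± 0.25 at ZT21 (adjusted p = 0.209). When 1 library was left out, Tsc1 ranged from -0.60 to -0.003 at ZT15 and from -0.79 to -0.23 at ZT21. At ZT3 both Rptor and Tsc1 passed under median-of-ratios scaling (adjusted p = 0.0453 and 0.0448) and with array weights (adjusted p = 0.0336 and 0.0153), and with the latter Mtor did too (-0.78, adjusted p = 0.0359).

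**Figure D2:**
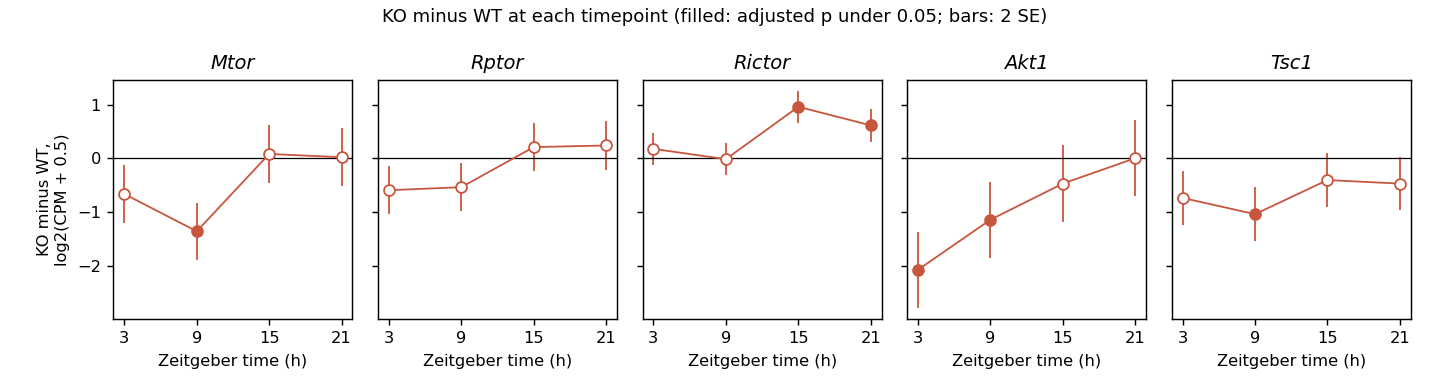
Difference between libraries labelled KO and WT (y axis, log2(CPM + 0.5)) at each zeitgeber time in hours (x axis) for 5 members, with bars of 2 SE and filled points where the adjusted p was below 0.05. Rictor is filled at ZT15 (0.96) and ZT21 (0.61), Akt1 at ZT3 (-2.07) and ZT9 (-1.14), and Mtor (-1.35) and Tsc1 (-1.04) at ZT9.

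Averaged over the 4 timepoints, KO differed from WT for 4 of 9 members. The level of Rictor was 22.5 to 49.0 CPM in WT (median 35.7) and 37.1 to 63.7 in KO (median 46.3), a difference of 0.43 ± 0.08 (adjusted p = 6.86e-05). Rictor was the 1 member called higher, as were 23.5% of all genes. Akt1, Tsc1 and Mtor were lower (10.2% of all genes). Akt1 had 143 to 218 CPM in WT (median 191) and 35.7 to 283 in KO (median 90.7), a difference of -0.92 ± 0.18 (adjusted p = 0.000243). Tsc1 had 17.6 to 43.6 CPM in WT (median 26.3) and 8.63 to 29.7 in KO (median 16.6), a difference of -0.66 ± 0.12 (adjusted p = 0.000182). Mtor had 14.2 to 52.1 CPM in WT (median 29.3) and 11.8 to 39.1 in KO (median 19.0), a difference of -0.48 ± 0.13 (adjusted p = 0.00698). The arms overlapped in all 4 genes. These averages did not hold alike at each timepoint. At ZT15 and ZT21 the difference was 0.08 ± 0.27 and 0.02 ± 0.27 for Mtor, and -0.47 ± 0.35 and 0.004 ± 0.35 for Akt1. For Rictor it was -0.015 ± 0.15 at ZT9. With the long-transcript covariate the calls of Akt1 (-0.48, adjusted p = 0.240), Tsc1 (-0.24, adjusted p = 0.385) and Mtor (0.10, adjusted p = 0.752) were lost.

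The remaining members did not pass in the model without covariates. The averaged difference was -0.17 ± 0.11 for Rptor (adjusted p = 0.255), 0.11 ± 0.08 for Mapkap1 (adjusted p = 0.321), 0.02 ± 0.13 for Mlst8, -0.03 ± 0.10 for Akt2 and 0.07 ± 0.16 for Tsc2 (adjusted p of these 3 between 0.770 and 0.934). For Mlst8, Akt2 and Tsc2 the sign turned with array weights, and for Mlst8 and Tsc2 also with median-of-ratios scaling. Rptor was at -0.26 with an adjusted p of 0.0470 under median-of-ratios scaling, at -0.26 (adjusted p = 0.0397) with array weights and at 0.40 (adjusted p = 0.0524) with the long-transcript covariate. With that covariate Tsc2 was at 0.98 (adjusted p = 0.000906) and Mapkap1 at 0.46 (adjusted p = 0.00764), both then called higher in KO. The median difference was -0.03 over the members and 0.10 over all genes.

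Tumour cells were compared with sham injection in mice of the WT genotype, a comparison that uses the same WT libraries as the previous one. Akt1 (chr12:112653821-112674884, minus strand), a ubiquitous AKT isoform, was higher in WT than in PBS libraries by 1.60 ± 0.12 (adjusted p = 3.09e-11). The lowest WT library (143 CPM) was above the highest PBS library (133 CPM), a separation of all 20 from all 12 libraries that 0.418% of all genes showed. PBS libraries had 46.4, 133 and 77.8 CPM at ZT3, 47.9, 44.3 and 63.0 at ZT9, 72.7, 54.5 and 49.1 at ZT15, and 53.6, 39.1 and 80.6 at ZT21. Akt1 was thus low in PBS libraries of every timepoint.

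Tsc1 was higher by 0.62 ± 0.12 (adjusted p = 0.000192), with 9.41 to 27.4 CPM in PBS (median 15.9), and Rptor by 0.50 ± 0.11 (adjusted p = 0.000722), with 51.3 to 91.5 CPM in PBS (median 71.6). These 3 members were called higher, against 13.3% of all genes. Akt2 was lower by 0.29 ± 0.06 (adjusted p = 0.000367), with 42.3 to 61.5 CPM in WT (median 50.4) and 52.3 to 89.3 in PBS (median 61.0). Rictor was lower by 0.30 ± 0.09 (adjusted p = 0.00704), with 19.5 to 56.0 CPM in PBS (median 47.7). These 2 were called lower, against 24.6% of all genes. The calls of Akt2, Rptor and Rictor were lost with T cell markers as a covariate (-0.19, 0.41 and -0.12, adjusted p = 0.229, 0.167 and 0.654), and those of Tsc1, Rptor and Rictor with the long-transcript covariate (0.15, 0.05 and -0.40, adjusted p = 0.578, 0.860 and 0.0562). That of Akt1 was kept with both.

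The difference between WT and PBS was 0.30 ± 0.14 for Mtor (p = 0.0467, adjusted p = 0.104, n = 32), 0.21 ± 0.11 for Mlst8 (adjusted p = 0.147), 0.17 ± 0.16 for Tsc2 (adjusted p = 0.432, but -0.69 and 0.0145 with the long-transcript covariate) and 0.05 ± 0.07 for Mapkap1 (adjusted p = 0.611). Mtor passed under median-of-ratios scaling (0.35, adjusted p = 0.0391) and with array weights (0.37, adjusted p = 0.0209), and was at -0.014 with T cell markers and -0.29 with the long-transcript index as a covariate. Side by side, the averaged differences of KO minus WT and WT minus PBS were 0.43 and -0.30 for Rictor, -0.92 and 1.60 for Akt1, -0.66 and 0.62 for Tsc1, -0.48 and 0.30 for Mtor, and -0.03 and -0.29 for Akt2. Both contain the WT libraries, so that signs which oppose each other are not separate evidence. The median of WT minus PBS was 0.21 over the members and -0.04 over all genes.

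**Figure D3:**
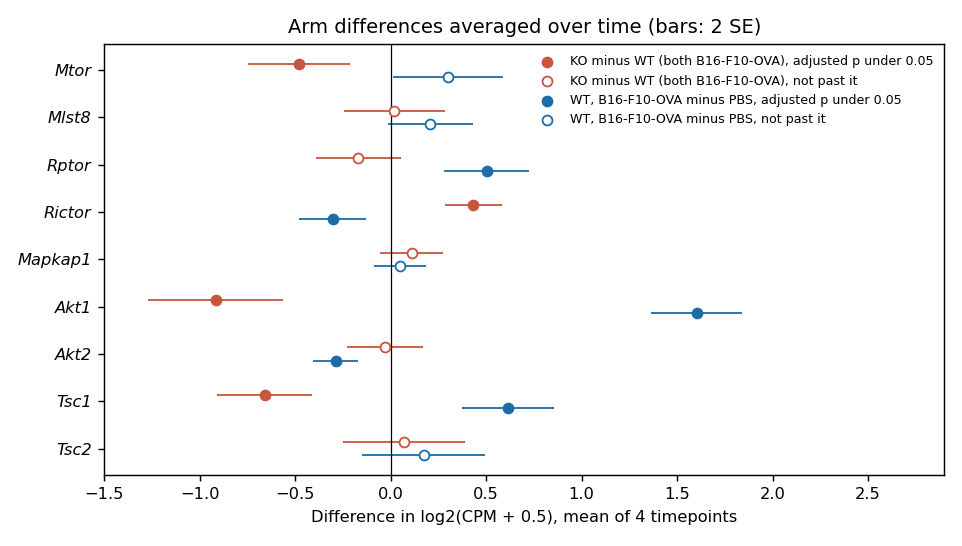
Averaged differences in log2(CPM + 0.5) (x axis) for each member (y axis), KO minus WT in red and WT minus PBS in blue, with bars of 2 SE and filled points where the adjusted p was below 0.05. Akt1 has the difference farthest from 0 in both comparisons (-0.92 and 1.60), and Rictor is the 1 member called above 0 in KO minus WT (0.43).

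In PBS libraries no member had an unadjusted p below 0.05 in the cosinor of limma (7.38% of all genes did, and 0% after adjustment) or between ZT9 and ZT21 (5.32% and 0%). Rictor had 53.3, 44.8 and 43.5 CPM at ZT3, 47.4, 56.0 and 48.0 at ZT9, 19.5, 39.6 and 42.0 at ZT15, and 50.8, 50.1 and 48.6 at ZT21 in these libraries (fitted peak at 3.11 h, amplitude 0.28 ± 0.14, p = 0.201, n = 12). The 3 ZT15 libraries were the lowest of the 12, and 1 of them, at 19.5 CPM, stood far below the rest. The share of all genes that were apart in this way is not given here. The interaction of treatment and time over 32 libraries gave an unadjusted p between 0.227 and 0.952 for the 9 members, where 11.9% of all genes were below 0.05 and 0% after adjustment. A difference in time course between tumour and sham was therefore not detected for any member, which does not show that the courses were alike.

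Since RICTOR and RAPTOR define the alternative complexes, their levels were set against each other in each library, as a difference of log2(CPM + 0.5). Rictor minus Rptor was -1.46 ± 0.34 in WT (SD, n = 20, from -2.12 to -0.69), -0.85 ± 0.32 in KO (n = 12, from -1.3 to -0.44) and -0.65 ± 0.34 in PBS libraries (n = 12, from -1.37 to 0). These values are not corrected for length and are given as a description with no test. In WT mice the mean was -1.5 at ZT3, -1.37 at ZT9, -1.74 at ZT15 and -1.22 at ZT21. In 1 PBS library of ZT9 both genes were at 56.0 CPM. The arms overlapped, with WT libraries farthest towards Rptor.

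**Figure D4:**
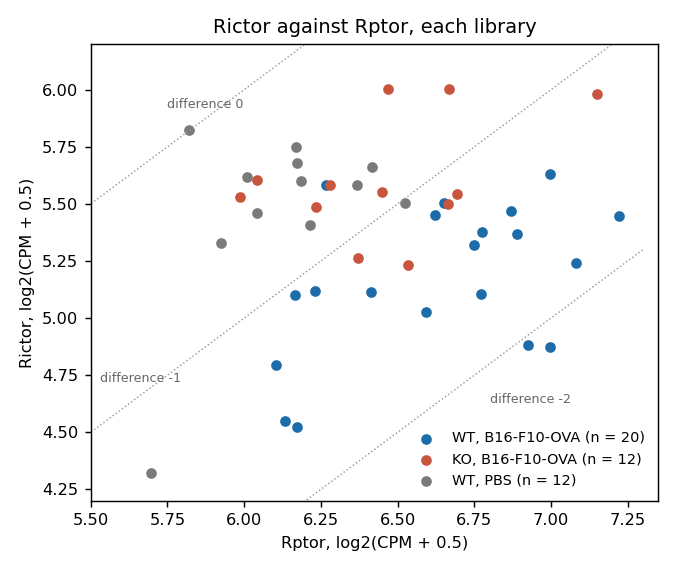
Rictor (y axis) against Rptor (x axis), both as log2(CPM + 0.5), with a point per library and dotted lines of equal difference. WT libraries lie lower and further right, with differences from -2.12 to -0.69, and PBS libraries reach the line of 0.

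The level of long transcripts moved with several members, to an extent that varied between arms. A long-transcript index was computed per library as the mean log2 level of the 1193 genes with the longest transcripts (6612 bases or more, members left out) less the mean of all genes, centred on all libraries. It was 0.11 on average in WT (from -0.07 to 0.28), -0.10 in KO (from -0.16 to 0.03) and -0.08 in PBS (from -0.16 to -0.01), and within WT 0.10 at ZT3, 0.21 at ZT9, 0.02 at ZT15 and 0.11 at ZT21. Across the 20 WT libraries Pearson's r with the index was 0.78 for Tsc1, 0.74 for Mtor, 0.73 for Rictor, 0.67 for Rptor, 0.64 for Mapkap1 and Tsc2, 0.54 for Akt1, 0.38 for Mlst8 and 0.04 for Akt2. Across the 12 KO libraries it was 0.67 for Rptor, 0.62 for Mtor, 0.58 for Tsc2, 0.50 for Rictor and Mapkap1, 0.44 for Akt1, 0.34 for Tsc1, 0.16 for Mlst8 and -0.54 for Akt2. Across the 12 PBS libraries it was 0.69 for Akt1, 0.66 for Tsc1, 0.51 for Mtor, 0.42 for Tsc2, 0.15 for Mapkap1, 0.10 for Akt2, 0.04 for Rptor, -0.04 for Mlst8 and -0.28 for Rictor. Mtor, Rictor and Tsc1 have transcripts of 8564, 9312 and 7702 bases, Akt1 one of 2690. These r values are descriptions over libraries that share arms and timepoints.

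With the index as a covariate, the averaged KO minus WT difference was 0.67 for Rictor (adjusted p = 0.000303). Of the 4 calls only that of Rictor was kept, while Tsc2 (0.98, adjusted p = 0.000906) and Mapkap1 (0.46, adjusted p = 0.00764) were newly called higher. At ZT9 no call of KO minus WT remained, as given above, while Akt1 at ZT3 (-1.62, adjusted p = 0.017) and Rictor at ZT15 (1.04) and ZT21 (0.83) were kept. In WT minus PBS, Akt1 (1.15, adjusted p = 5.92e-05) and Akt2 (-0.48, adjusted p = 0.000672) were kept, Rptor, Tsc1 and Rictor (-0.40) were not, and Tsc2 was newly called lower in WT (-0.69, adjusted p = 0.0145). In the WT cosinor the p of Rictor was 0.0192 with the covariate. The index itself differed between the arms, and its source was not tested.

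With the mean level of the T cell markers as a covariate, the 4 averaged KO minus WT calls were kept, at 0.39 for Rictor, -0.76 for Akt1, -0.53 for Tsc1 and -0.48 for Mtor. In WT minus PBS, Akt1 (1.67) and Tsc1 (0.67) were kept, and Rictor, Rptor and Akt2 were not. At ZT9 the KO minus WT difference of Akt1 was -0.93 with it (adjusted p = 0.114). The mean log2 level of these markers, centred on all libraries, was -0.18 in WT, 0.01 in KO and 0.29 in PBS, and -0.51 at ZT9 in WT.

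**Figure D5:**
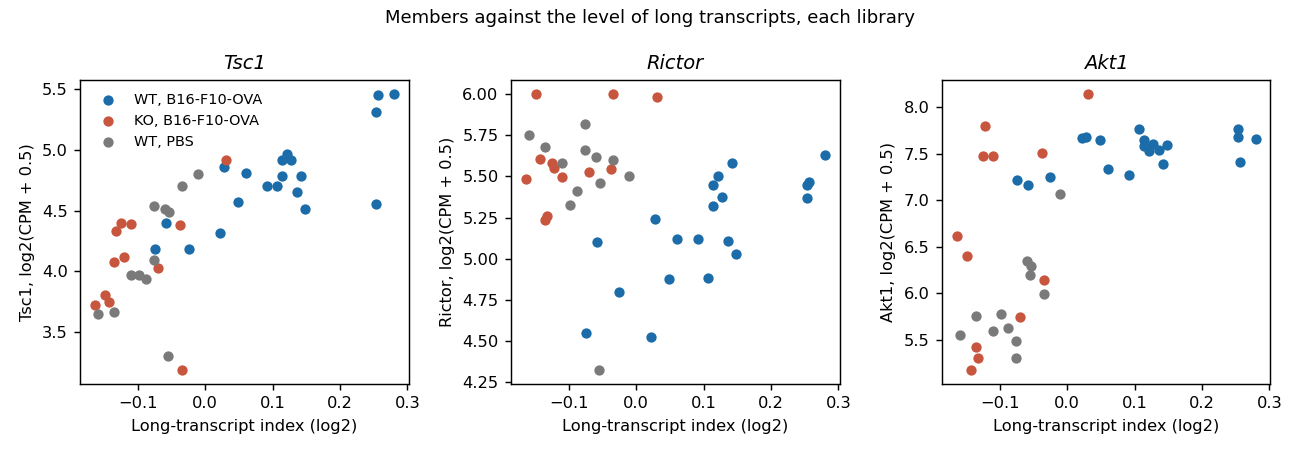
Level of Tsc1, Rictor and Akt1 (y axis, log2(CPM + 0.5)) against the long-transcript index (x axis, log2) with a point per library of the WT, KO and PBS arms. WT libraries reach an index of 0.28 and KO libraries 0.03. Most KO libraries lie below the lowest WT index (-0.075) and have no WT library of a like index. Where the arms overlap in the index, Rictor in KO lies above WT, and most WT libraries there are of ZT15. Akt1 in KO is spread over the range of both other arms.

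Akt1 varied more between KO libraries than most genes. Its SD on the log2 scale was 1.05 in KO (n = 12), larger than that of 99.4% of the 7928 genes with a mean of at least 10 CPM, against 0.19 in WT (larger than 24.1%) and 0.49 in PBS (93.6%). The ratio of the highest to the lowest library was 7.92 in KO, 1.53 in WT and 3.41 in PBS. Akt2 by contrast had an SD of 0.14 in WT, larger than that of 9.75% of the genes. The genes that followed Akt1 most closely across the 12 KO libraries, picked after their values were seen, were Ybx3, Smad4, Zmiz2, Marveld1 and Ankrd11 (r from 0.97 to 0.98). Smad4, the shared mediator of TGF-β signalling, ranged from 23.8 to 242 CPM in KO, 141 to 252 in WT and 27.3 to 94.4 in PBS. Akt1 was read from at least 1063 reads in every library.

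The other genes of the pathway were taken from lists of PI3K subunits and PIP3 phosphatases, Rheb, Rag GTPases and amino acid sensors, AMPK, further complex components, and effectors. There were 92 such genes, of which 89 were tested. Averaged over time, 34 differed between KO and WT after adjustment (21 higher and 13 lower), which is 38.2% against 33.7% of all genes. Between WT and PBS 34 differed (16 higher and 18 lower), 38.2% against 37.9% of all genes. In KO minus WT these were 5 higher and 6 lower of 18 genes of the PI3K list, 7 and 2 of 29 of the Rheb and Rag list, 7 and 4 of 23 effectors, 1 and 1 of 10 of the AMPK list and 1 and 0 of 9 complex components. In WT minus PBS they were 6 and 3, 3 and 6, 3 and 4, 4 and 2, and 0 and 3, in the same order. The PI3K, Rheb and Rag, AMPK and effector lists held genes called in both directions in both comparisons, and the median over all pathway genes was 0.08 in KO minus WT and 0.01 in WT minus PBS.

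The pathway gene with the smallest p in both comparisons was Eif4ebp2, a repressor of translation initiation that mTORC1 phosphorylates. It had 35.6 to 55.6 CPM in WT (median 42.6), 7.72 to 15.6 in KO (median 11.3) and 10.4 to 18.8 in PBS (median 13.6). The difference was -1.91 ± 0.08 in KO minus WT (adjusted p = 2.7e-16) and 1.61 ± 0.08 in WT minus PBS (adjusted p = 4.48e-14). Its binding partner Eif4e, the cap-binding factor, had the opposite signs (0.45 ± 0.07 and -0.40 ± 0.06). Phlpp1, a phosphatase of AKT, was at -0.86 ± 0.11 in KO minus WT and 0.77 ± 0.09 in WT minus PBS. Rraga, a Rag GTPase that brings mTORC1 to lysosomes, was at 0.56 ± 0.08 and -0.46 ± 0.06. Sesn1, a stress-induced inhibitor of mTORC1, was higher in KO (0.73 ± 0.10), and Prkaa1, a catalytic subunit of AMPK, lower (-0.90 ± 0.11). Pik3ap1, the PI3K adaptor BCAP, was lower (-1.27 ± 0.17) and Larp1, a translation regulator under mTORC1, higher (0.73 ± 0.10) in WT than in PBS. All of these had adjusted p below 0.05, and they kept it with the long-transcript covariate.

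In the WT cosinor 8 of the 89 pathway genes had an unadjusted p below 0.05, 8.99% against 9.2% of all genes, and none passed after adjustment. The fitted peak was at 3.93 h for Prkag1, a regulatory AMPK subunit (p = 0.00484, n = 20), 6.05 h for Pik3r1, the main PI3K regulatory subunit (p = 0.00662), and 9.60 h for Lpin1, a phosphatidate phosphatase under mTORC1 (p = 0.0182). That of Eif4e was at 17.9 h (p = 0.00918, n = 20) and that of Inpp4b, a lipid phosphatase, at 19.7 h (p = 0.0286). With T cell markers as a covariate the p was 0.359 for Inpp4b and 0.0670 for Lpin1 (n = 20), and leaving out 1 of the 20 libraries ended the call of Inpp4b in 4 fits and that of Lpin1 in 2. The genotype by time interaction had an unadjusted p below 0.05 for 18 of the 89, 20.2% against 18.3% of all genes, and none passed after adjustment.

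The genes whose 12 condition means followed those of Rictor most closely were Lmbrd1 (r = 0.960), Ostm1 (0.954) and Kansl2 (0.944). For Mtor they were Dido1 (0.912), Zbtb43 (0.905) and Gbf1 (0.90). These were taken among 7928 genes with a mean of at least 10 CPM, as a description with no test.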

How the data were processed

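RNA-seq libraries (SMART-Seq v4 and Nextera XT, single reads of 50 bases) were mapped by the authors to mm10, with STAR and HTSeq 0.9.1 named in the submitters' processing notes. The deposited values are CPM, counts that the authors scaled by library size, and each column adds up to 1000000. The members and gene lists were chosen with earlier results of these data known. From the deposited CPM, log2(CPM + 0.5) was tested for 11963 of 14699 genes (at least 1 CPM in at least 5 of 44 libraries) by limma's moderated tests (limma 3.58.1, R 4.3.3), and p-values were adjusted by the Benjamini-Hochberg method across those genes. Models were a 24-h cosinor within each arm, and group means with contrasts for 2 arms (32 libraries). Fold changes on this scale understate those of low genes. Models were tested on simulated data. No identical libraries were found. All 9 members were named, with Arntl, and of the pathway lists up to 3 genes per direction by smallest p in the WT cosinor and averaged comparisons. Alternatives were other pseudocounts, scaling, filters, variance models, covariates for T cell markers and long transcripts, a replicate block, and leaving out each library.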

Additional observations from a re-analysis of the deposited data

Results flagged for a closer look

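The interaction of genotype and time in limma had an unadjusted p below 0.05 for 4 of 9 members, as for 18.3% of all genes, and no member passed after adjustment. The unadjusted p-values were 0.000408 for Rictor, 0.00204 for Akt1, 0.00212 for Mtor and 0.0154 for Rptor (adjusted p of 0.0735, 0.110, 0.110 and 0.192 over 11963 genes). Between KO and WT, Rictor was called at ZT15 and ZT21, Akt1 at ZT3 and ZT9 and Mtor at ZT9. The calls at ZT9 were lost with the long-transcript covariate (-0.41 for Akt1 and -0.39 for Mtor), and that of Akt1 also with the replicate block (adjusted p = 0.101), with the T cell covariate (adjusted p = 0.114) and in 7 of 32 fits that left out a library (adjusted p up to 0.366). The p of Mtor was 0.0699 with the long-transcript covariate, and those of the other 3 were between 0.00325 and 0.0366 with it. In the WT arm, 0 of 36 groups of 5 libraries (9 members at 4 timepoints) held a library whose gap to the nearest one exceeded 0.71 of the group's range.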

How the results depend on the processing

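The counts of members below an unadjusted p of 0.05 changed with the fit. All shares of all genes in this report are from the main fit, and those of the alternative fits are not given. The counts below therefore do not show whether the members moved more than other genes did. In the WT cosinor (1 member) they were 4 with median-of-ratios scaling, with an intensity trend and with array weights, and 2 with a mean of at least 10 CPM and with the long-transcript covariate. In the KO cosinor (3) they were 1 with median-of-ratios scaling, 2 with the T cell covariate (without Mtor) and 0 with the long-transcript covariate, and in the PBS cosinor (0) 1 without a filter and 1 with array weights. Between ZT9 and ZT21 in WT (2) they were 5 with array weights and 1 with either covariate, which was neither Mtor nor Tsc1. In KO (1) they were 2 with a trend, 2 with array weights, 3 with the T cell covariate (Rptor and Akt1 among them, but not Mtor) and 0 with the long-transcript covariate. The counts after adjustment were 1 with a mean of at least 10 CPM and 3 with array weights for genotype by time (0), 2 with array weights for ZT9 against ZT21 in WT (0), and 2 with the T cell and 3 with the long-transcript covariate for WT minus PBS (5). For KO minus WT they were 3 with median-of-ratios scaling, 4 with array weights and 2 with the long-transcript covariate at ZT3 (1), 0 with the latter at ZT9 (3), 3 with it at ZT15 (1), and 2 with array weights and 3 with it at ZT21 (1).

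Signs turned in KO minus WT for Mtor (0.10 with the long-transcript covariate), Rptor (0.40 averaged and 0.42 at ZT9 with it), Mlst8 (-0.074 with median-of-ratios scaling, -0.031 with array weights, -0.011 with the T cell covariate), Akt2 (0.050 with array weights) and Tsc2 (-0.024 with median-of-ratios scaling, -0.030 with array weights). In WT minus PBS they turned with the T cell and the long-transcript covariate for Mtor (-0.014 and -0.29), Mapkap1 (-0.082 and -0.19) and Tsc2 (-0.080 and -0.69, adjusted p = 0.0145). The cause of these changes was not tested.

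Leaving out each library in turn, the unadjusted counts were 1 to 4 in the WT cosinor, 1 to 3 in the KO cosinor, 0 to 1 in the PBS cosinor and in treatment by time, and 0 to 2 between ZT9 and ZT21 in KO. The adjusted counts were 0 to 2 for genotype by time, 1 to 3 for KO minus WT at ZT3 and at ZT9, and 0 to 2 at ZT21. The averaged KO minus WT of Mlst8 ranged from -0.034 to 0.099 and that of Akt2 from -0.11 to 0.067.

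With the replicate block the KO cosinor count was 1, since Rptor (p = 0.0512, n = 12) and Akt1 (p = 0.0685) lost their call, and Akt1 at ZT9 lost its call too. It changed no other call of a member. Libraries of the same replicate number were little alike within arms (mean r of deviations -0.01, over 0.1 in 3 of 66 pairs). Between arms at the same timepoint the mean r was 0.01 for WT and KO (over 0.1 in 0 of 12 pairs). For WT and PBS it was 0.03 (over 0.1 in 2 of 12 pairs). A count test was not run, since only 87.5% to 89.3% of values per library came out as whole reads (within 0.01 read). Values of Mtor, Rictor, Mapkap1 and Tsc1 were whole in 44 of 44 libraries, and those of Tsc2 in 0 of 44. Those of Rptor were whole in 18 of 44, all of them KO or PBS libraries. Those of Mlst8 were whole in 19 of 44, most of them WT libraries. Whether this bears on differences of Rptor or Mlst8 between WT and the other arms was not tested. Each member had at least 316 reads in every library, and no analysis at matched depth was run.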
